A study of Homo sapiens with 8 samples.

Results

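Receptor tyrosine kinases other than the neurotrophin receptors and RET were examined in a pair of stable SHSY5Y lines, a human neuroblastoma line of neural crest origin, before and after neuronal differentiation. The set was a list of 50 symbols, and each member was read from the array row annotated to that symbol alone, or from the row with the highest mean where a gene had several. A row of this kind was found for 47 of the 50 members, among 18377 genes read in the same way. EPHB2, ALK and ROS1 were not analysed here, since ALK had 3 rows and ROS1 4 rows that carried other symbols as well and EPHB2 had none.

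The study hybridised 8 Affymetrix Human Gene 1.0 ST arrays, 2 for each of 4 groups, to follow what depletion of IKAP, the Elongator scaffold protein encoded by IKBKAP, does to gene expression. The groups were V71 cells under differentiation conditions (V71 DF), PLKO cells under differentiation conditions (PLKO DF), V71 cells under non-differentiation growth conditions (V71 NDF) and PLKO cells under non-differentiation growth conditions (PLKO NDF). Both lines were stable, virus-transduced lines kept under puromycin, in which the virus carried either an IKBKAP shRNA or the empty pLKO vector. All cells were grown on laminin. DF cells received 10 µM retinoic acid for 5 days, followed by 3 days without serum in the presence of 2 nM BDNF, and NDF cells stayed in growth medium. The treatment labels name the PLKO arrays as IKBKAP shRNA and the V71 arrays as control, whereas the study's methods name pLKO as the control vector. The methods also name an IKBKAP shRNA clone whose number ends in the same digits as the code V71. The sources thus disagree on which line carried the shRNA, no label was changed, and every difference between the lines is given as V71 minus PLKO. IKBKAP itself was not analysed here. Each condition was read in 1 stable line per virus, so an effect of the shRNA and a property of the line cannot be told apart. Retinoic acid, BDNF and the loss of serum came together in DF cells, so their effects cannot be told apart either.

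Receptor tyrosine kinases are membrane proteins that bind a ligand outside the cell, pair up, and phosphorylate each other on tyrosines that then hold adaptors of the RAS and PI3K pathways. In the neural crest and its sympathetic derivatives they govern survival, migration, proliferation and fate, PDGFRA marking crest-derived mesenchyme and KIT serving melanocytes and other crest progeny. Eph receptors bind membrane-bound ephrins and steer axons and migrating cells, and the insulin receptor family sets growth and metabolism.

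The promoter windows of the 4 receptors that were lower in V71 than in PLKO cells under both conditions are shown because these genes shared a direction, and because PDGFRA and KIT lie next to each other on chromosome 4. Each window runs 5′ to 3′ from 250 bases before to 50 bases after the first transcription start that RefSeq lists, on the plus strand of GRCh38.p14. The positions are chr4:54229043-54229342 for PDGFRA, chr4:54657707-54658006 for KIT, chr7:55018767-55019066 for EGFR and chr7:116671946-116672245 for MET. Capitals mark Sp1 boxes, the letters GGGCGG or, on the other strand, CCGCCC.
PDGFRA: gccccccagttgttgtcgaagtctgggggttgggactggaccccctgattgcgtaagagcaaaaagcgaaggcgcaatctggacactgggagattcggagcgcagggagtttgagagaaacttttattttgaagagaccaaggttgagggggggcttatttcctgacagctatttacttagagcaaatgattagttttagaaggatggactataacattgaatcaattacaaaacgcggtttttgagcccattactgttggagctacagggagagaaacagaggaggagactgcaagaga
KIT: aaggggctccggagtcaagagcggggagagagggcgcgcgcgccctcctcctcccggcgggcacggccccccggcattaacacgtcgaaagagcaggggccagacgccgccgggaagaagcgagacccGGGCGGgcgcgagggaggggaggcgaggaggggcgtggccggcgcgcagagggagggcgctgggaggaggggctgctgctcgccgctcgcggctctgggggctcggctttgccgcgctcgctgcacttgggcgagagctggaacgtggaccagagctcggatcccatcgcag
EGFR: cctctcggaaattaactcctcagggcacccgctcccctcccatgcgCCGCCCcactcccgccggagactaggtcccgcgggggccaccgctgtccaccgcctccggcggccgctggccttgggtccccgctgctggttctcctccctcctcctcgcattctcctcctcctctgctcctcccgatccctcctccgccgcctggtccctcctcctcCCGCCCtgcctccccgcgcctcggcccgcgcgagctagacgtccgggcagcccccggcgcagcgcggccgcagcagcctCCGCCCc
MET: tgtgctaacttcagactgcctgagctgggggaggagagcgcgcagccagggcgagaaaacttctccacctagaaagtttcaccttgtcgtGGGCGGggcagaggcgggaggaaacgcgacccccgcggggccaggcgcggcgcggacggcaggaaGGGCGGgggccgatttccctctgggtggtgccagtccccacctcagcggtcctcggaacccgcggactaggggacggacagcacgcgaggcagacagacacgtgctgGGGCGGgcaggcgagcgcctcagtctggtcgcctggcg
The PDGFRA window held 0 Sp1 boxes and was 47% G or C, against 1 box and 74.3% for KIT, 3 boxes and 75.3% for EGFR and 3 boxes and 69.3% for MET. Of the 2 receptors that rose upon differentiation in both lines, IGF1R had 2 boxes at 79.7% and EPHA6 4 boxes at 71%. These counts depend on the start chosen, since at the other start listed the window held 2 boxes and 66.7% for PDGFRA, 0 boxes and 42% for EGFR, and 0 boxes and 39.7% for EPHA6. A half-site of retinoic acid receptors and related nuclear receptors was searched only as the exact letters AGGTCA or TGACCT, which do not overlap the box. These letters were in 0 of these 6 first windows, and other forms of the half-site were not searched. Over the first windows of 27305 genes, 44.6% held the Sp1 box and 13.9% the half-site letters, against 33 (73.3%) and 2 (4.44%) of the 45 members with a window. The 27305 genes were not limited to those read on the arrays, and their windows had a median of 58.3% G or C. Whether these shares follow the G and C content was not tested. A match of letters is a description of the window and not a bound site.

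Values are on the log2 scale of robust multi-array averaging (RMA), on which a difference of 1 is a doubling. A gene was called when its difference passed an adjusted p of 0.05 in limma, with Benjamini-Hochberg adjustment over all 28869 rows, and was at least 1.5-fold. Array medians ran from 4.60 to 4.68 and lower quartiles from 3.002 to 3.063. The lowest Spearman correlation within a group was 0.9947, and those between groups lay between 0.9811 and 0.9931. Noradrenergic neuroblast markers were high, 14 of the 17 analysed lying above the upper quartile in each group and 0 below the lower quartile. Schwann cell, endothelial and white blood cell markers had 0 called genes among 8, 6 and 5 in any comparison. Of all genes 11.3% were called in at least 1 comparison, and at that share lists this short would hold few called genes. In each group 2 to 3 of the 8 Schwann cell markers, CDH19 and FABP7 always among them, lay below the lower quartile and 1, CNP, above the upper quartile. Of the endothelial markers 2, PECAM1 and EMCN, lay below the lower quartile and 1, CLDN5, above the median, and of the white blood cell markers 1, PTPRC, lay below the lower quartile and 0 above the median. The 2 arrays of a group were biological duplicates, and nothing ties them to separately derived lines, so p-values measure the spread between cultures of a line.

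Most of the receptors were called in no comparison. Group means of 16 members lay above the array median in all groups, among them MERTK, TYRO3, DDR1, FGFR1, IGF1R, INSR, PDGFRA and PDGFRB, and DDR2, PTK7, ROR2 and RYK were above the upper quartile throughout. Group means of 24 members lay below the median in all groups, and 7 of these, EPHA3, EPHA5, EPHA7, FLT1, FLT3, MUSK and TEK, fell under the lower quartile everywhere. A further 7, EGFR, ERBB2, EPHA2, EPHB4, FGFR2, INSRR and KIT, lay above the median in some groups only. Of the 47 members 13 (27.7%) were called at least once, against 11.3% of all genes, and 34 never, and none of the 7 dimmest was called.

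**Figure D1:**
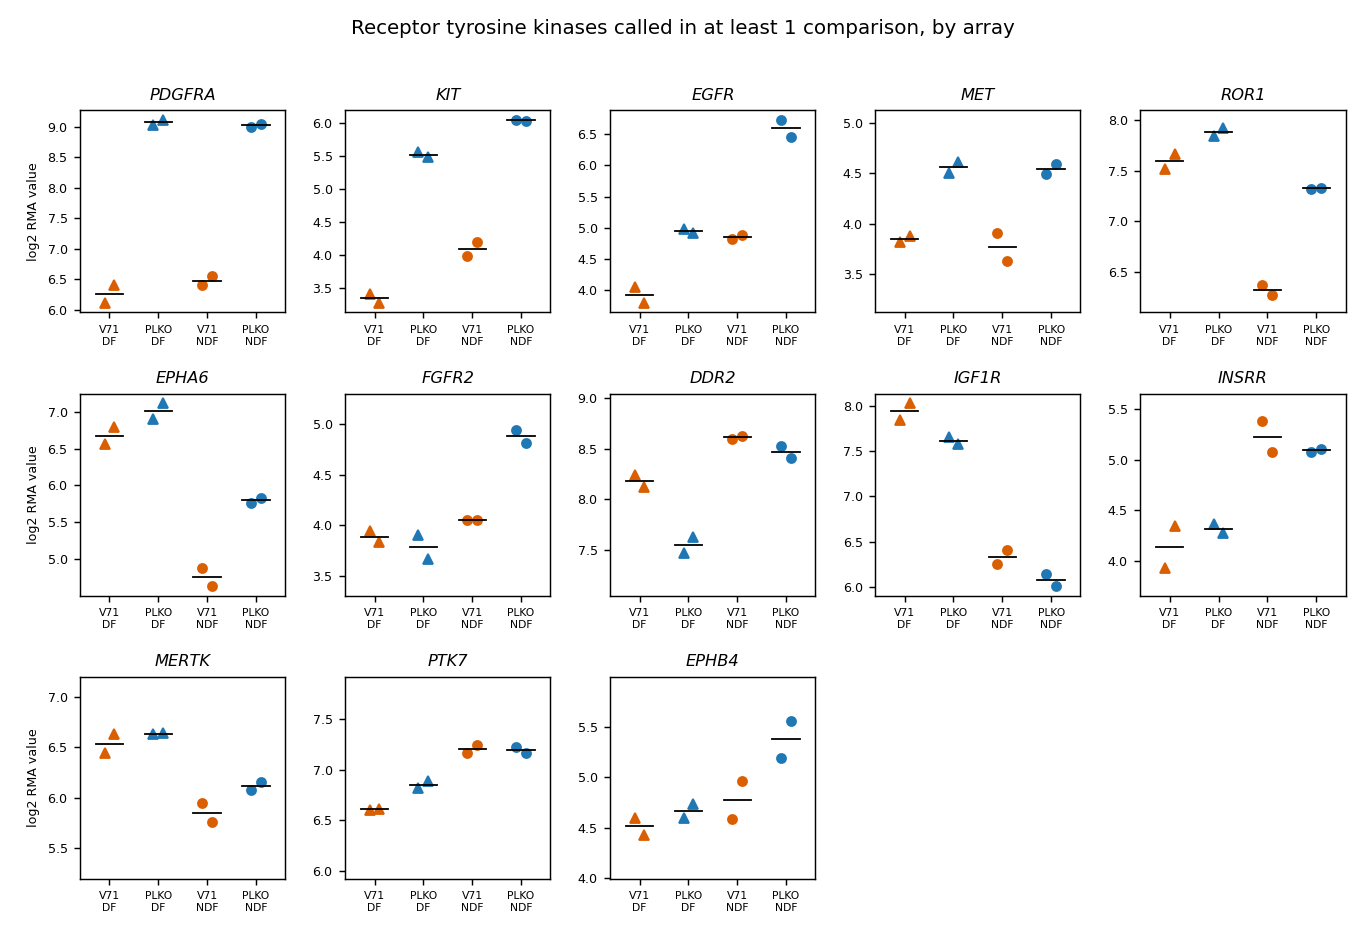
Log2 RMA value of each of the 13 called receptors on every array (points; triangles DF, circles NDF; V71 orange, PLKO blue), with the group mean as a line; the vertical axes all span at least 2 units but differ in position between panels. PDGFRA sits between 6.11 and 6.55 on the 4 V71 arrays and between 8.99 and 9.11 on the 4 PLKO arrays, whereas IGF1R separates DF from NDF.

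Under non-differentiation growth conditions 7 of the 47 receptors were lower in V71 than in PLKO cells and 0 were higher. The 7 were PDGFRA, KIT, EGFR, EPHA6, ROR1, FGFR2 and MET, and they made up 14.9% of the members, where 2.15% of all genes were called, 1.54% lower and 0.615% higher. The median difference of the 47 was 0.00 on the log2 scale, and 0.01 over all genes. In the DF cells 4 of the 7, PDGFRA, KIT, EGFR and MET, were again lower in V71, and DDR2 was higher. These 5 were 10.6% of the members, where 3.06% of all genes were called, 1.26% lower and 1.81% higher, and the median difference was -0.04 for the members and 0.01 for all genes. The NDF and DF comparisons use different arrays of the same lines. Without empirical Bayes moderation of the variance, the calls of EPHA6, FGFR2 and MET in NDF cells and of EGFR, MET and DDR2 in DF cells were lost.

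PDGFRA, the α receptor for platelet-derived growth factor, showed the widest gap between the lines. Its log2 values were 6.40 and 6.55 in V71 NDF cells, against 8.99 and 9.05 in PLKO NDF cells. In DF cells they were 6.11 and 6.40 in V71, against 9.02 and 9.11 in PLKO. No V71 array came within 2 log2 units of a PLKO array. The difference was -2.55 (SE 0.11, limma adjusted p = 5.83e-06) in NDF cells, a level 5.84-fold lower, and -2.81 (SE 0.11, adjusted p = 4.39e-06) in DF cells, 7.02-fold lower. Its sister receptor PDGFRB was not called, with 6.39 and 6.51 in V71 NDF cells against 6.34 and 6.39 in PLKO NDF cells, and a difference of 0.09 (95% interval -0.12 to 0.30).

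KIT, the receptor for stem cell factor and the neighbour of PDGFRA, had the next widest gap. It read 3.98 and 4.20 in V71 NDF cells, against 6.05 and 6.03 in PLKO NDF cells, and 3.40 and 3.26 in V71 DF cells, against 5.55 and 5.48 in PLKO DF cells. All V71 arrays lay below all PLKO arrays. The differences were -1.95 (SE 0.10, adjusted p = 1.2e-05) in NDF and -2.18 (SE 0.10, adjusted p = 5.56e-06) in DF cells. KDR, a VEGF receptor on the far side of KIT, was near the lower quartile and differed by 0.17 (95% interval -0.02 to 0.35) and 0.03 (95% interval -0.16 to 0.22). Of the next 5 genes with a row on each side of this trio, a choice made after the values were seen, 0 of 10 were called in either condition. Over all genes 2.15% were called in NDF and 3.06% in DF cells, so 0 among 10 lies near those shares. Differences of these 10 ran from -0.53, in NMU, to 0.19 in NDF cells and from -0.27 to 0.33 in DF cells. The NMU difference in NDF cells had a limma adjusted p of 0.0275 and was under the fold threshold. FLT3 and CSF1R, the other class III receptors, were not called in any comparison.

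EGFR, the receptor for epidermal growth factor, was lower in V71 cells in both conditions. It read 4.81 and 4.87 in V71 NDF cells, against 6.74 and 6.45 in PLKO NDF cells, a difference of -1.75 (SE 0.12, adjusted p = 4.44e-05). In DF cells it read 4.04 and 3.79 in V71, against 4.97 and 4.91 in PLKO, a difference of -1.03 (SE 0.12, adjusted p = 0.00115). The V71 and PLKO arrays did not overlap within either condition. ERBB2, the ErbB member without a ligand of its own, differed by -0.47 in DF cells (SE 0.10, adjusted p = 0.0247), under the fold threshold, and ERBB3 and ERBB4 were not called.

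MET, the hepatocyte growth factor receptor, gave a smaller gap of the same sign. It read 3.91 and 3.63 in V71 NDF cells, against 4.49 and 4.59 in PLKO NDF cells, and 3.82 and 3.88 in V71 DF cells, against 4.50 and 4.61 in PLKO DF cells. Its group means lay below the array median throughout, and the V71 arrays lay below the PLKO arrays in each condition. The differences were -0.77 (SE 0.11, adjusted p = 0.00417) and -0.71 (SE 0.11, adjusted p = 0.00475). The NDF call for MET was lost without PLKO NDF replicate 3. MST1R, its close relative, differed by 0.08 (95% interval -0.18 to 0.34) in NDF cells and -0.15 (95% interval -0.41 to 0.11) in DF cells.

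The remaining 3 receptors were called between the lines in NDF cells and not in DF cells. ROR1, a Wnt5a-related receptor of embryonic tissue, read 6.37 and 6.27 in V71 NDF cells, against 7.32 and 7.33 in PLKO NDF cells, and the difference was -1.002 (SE 0.09, adjusted p = 0.000277). In DF cells ROR1 read 7.52 and 7.67 in V71, against 7.84 and 7.92 in PLKO, a difference of -0.29 (adjusted p = 0.118). The arrays of the lines did not overlap in either condition, and the gap was wider in NDF than in DF cells. EPHA6, an ephrin-A receptor of the nervous system, read 4.88 and 4.63 in V71 NDF cells, against 5.76 and 5.83 in PLKO NDF cells, a difference of -1.04 (SE 0.12, adjusted p = 0.00171). In DF cells EPHA6 read 6.56 and 6.80 in V71, against 6.90 and 7.12 in PLKO, a difference of -0.34 (adjusted p = 0.193). FGFR2, a fibroblast growth factor receptor, read 4.05 and 4.05 in V71 NDF cells, against 4.94 and 4.82 in PLKO NDF cells, a difference of -0.83 (SE 0.10, adjusted p = 0.00207). In DF cells FGFR2 read 3.94 and 3.83 in V71, against 3.90 and 3.66 in PLKO, which overlap, and the difference was 0.11 (adjusted p = 0.699). FGFR1, FGFR3 and FGFR4 were called in neither condition.

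DDR2, a receptor for fibrillar collagen, was the only member called higher in V71 cells. It read 8.24 and 8.12 in V71 DF cells, against 7.46 and 7.62 in PLKO DF cells, a difference of 0.64 (SE 0.09, adjusted p = 0.00444). In NDF cells it read 8.60 and 8.63 in V71, against 8.53 and 8.41 in PLKO, a difference of 0.15 (95% interval -0.06 to 0.36). The DF call was lost without V71 DF replicate 1 or PLKO DF replicate 1, and the second DDR2 row gave 0.34 (adjusted p = 0.0823).

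**Figure D2:**
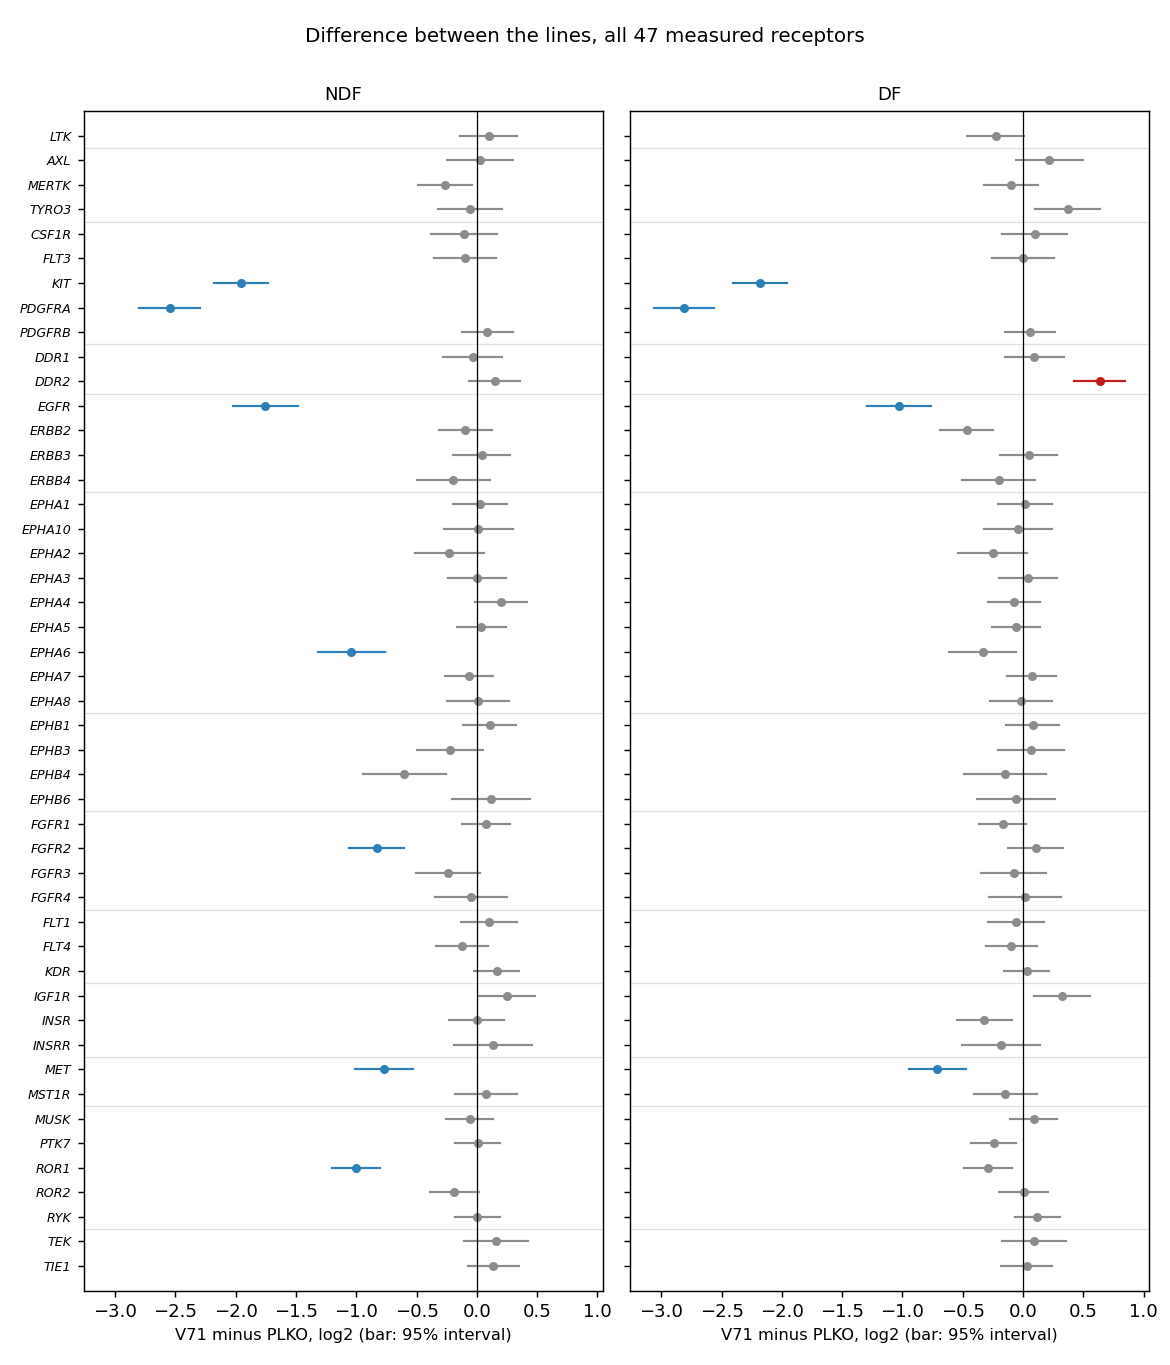
V71 minus PLKO difference (log2, with 95% interval) of each of the 47 analysed receptors in NDF and in DF cells, ordered by family, with called members in blue (lower in V71) or red (higher in V71) and the rest in grey. PDGFRA and KIT lie near -2 or beyond in both panels, and most members straddle 0.

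Some markers of the substrate-adherent, mesenchymal type of neuroblastoma cell differed between the lines as well. Of the 34 analysed, 9 (26.5%) were lower and 0 higher in V71 NDF than in PLKO NDF cells, where 1.54% of all genes were lower and 0.615% higher. In DF cells 3 (8.82%), DCN, TNC and CDH11, were lower and 0 higher in V71 than in PLKO, where 1.26% of all genes were lower and 1.81% higher. Over the 34 markers the median difference in NDF cells was -0.08, with 22 negative and 12 positive. In DF cells the median was -0.03, with 18 negative and 16 positive. The mean log2 value over the list was 4.43 to 4.51 on V71 NDF arrays, against 4.85 on both PLKO NDF arrays, and 4.48 to 4.60 on V71 DF arrays, against 4.65 to 4.67 on PLKO DF arrays. VIM, the mesenchymal filament protein, read 3.17 and 3.23 in V71 NDF cells, against 4.77 and 5.12 in PLKO NDF cells, while POSTN, ANXA1, S100A11 and CAV1 were below the lower quartile in every group. Noradrenergic markers differed between the lines too, and of the 17 analysed 3, HAND1, CHGA and CHGB, were higher and 1, ELAVL4, lower in V71 NDF than in PLKO NDF cells, 23.5% in all. In DF cells CHGB was higher and DBH lower in V71, 11.8% in all. The mean over that list was 7.90 to 7.99 on V71 NDF arrays, against 7.66 to 7.75 on PLKO NDF arrays, and 7.74 to 7.77 on V71 DF arrays, against 7.57 to 7.62 on PLKO DF arrays. Fewer cells of a type and less RNA per cell cannot be told apart in these bulk samples, and the part of such cells in the receptor differences was not tested.

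Upon differentiation 4 of the 47 receptors rose and 4 fell in V71 cells, and 2 rose and 5 fell in PLKO cells. Over all genes 7.53% were called in V71 cells, 3.98% rising and 3.55% falling, and 7.04% in PLKO cells, 2.88% rising and 4.16% falling. EPHA6, ROR1, IGF1R and MERTK rose in V71 cells and INSRR, EGFR, KIT and PTK7 fell. EPHA6 and IGF1R rose in PLKO cells and EGFR, FGFR2, INSRR, DDR2 and EPHB4 fell. The median change of the members was -0.03 in V71 and -0.01 in PLKO cells, against 0.00 and 0.01 over all genes. Without moderation the calls of INSRR in both lines and of EPHB4 in PLKO cells were lost. Of the 34 mesenchymal markers 4 rose and 0 fell in V71 cells, and 1 rose and 5 fell in PLKO cells. Among these markers 7 (20.6%) had a called positive interaction and 0 a negative one, against 1.09% and 0.305% of all genes. Of the 17 noradrenergic markers 3 rose and 6 fell in V71 cells, and 2 rose and 3 fell in PLKO cells. A called negative interaction was seen for 2 (11.8%), HAND1 and CHGA, and a positive one for 0, against 0.305% and 1.09% of all genes.

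IGF1R, the type I receptor for insulin-like growth factors, rose in both lines. It read 7.85 and 8.04 in V71 DF cells, against 6.25 and 6.40 in V71 NDF cells, and 7.66 and 7.58 in PLKO DF cells, against 6.14 and 6.004 in PLKO NDF cells. Every DF array lay more than a log2 unit above every NDF array. The change was 1.62 (SE 0.10, adjusted p = 1.01e-05) in V71 and 1.55 (SE 0.10, adjusted p = 9.72e-06) in PLKO cells, close to 3-fold in each, and the lines differed in it by 0.07 (95% interval -0.25 to 0.40). The second IGF1R row rose by 1.53 and 1.27. INSR, the insulin receptor itself, changed by -0.13 (95% interval -0.36 to 0.10) in V71 and 0.19 (95% interval -0.04 to 0.42) in PLKO cells.

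INSRR, the insulin receptor-related receptor, went the other way. It read 3.93 and 4.34 in V71 DF cells, against 5.38 and 5.07 in V71 NDF cells, and 4.36 and 4.27 in PLKO DF cells, against 5.08 and 5.11 in PLKO NDF cells. All DF arrays lay below all NDF arrays. The change was -1.09 (SE 0.14, adjusted p = 0.000827) in V71 and -0.78 (SE 0.14, adjusted p = 0.00608) in PLKO cells, and the PLKO call was lost without PLKO NDF replicate 3.

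EPHA6 had the largest rise of any member in V71 cells, and in PLKO cells IGF1R rose more. With the array values above, the change was 1.92 (SE 0.12, adjusted p = 1.14e-05) in V71 cells, 3.79-fold, and 1.22 (SE 0.12, adjusted p = 0.000149) in PLKO cells, 2.32-fold. The difference between these changes was 0.71 (SE 0.17, adjusted p = 0.139). EPHB4, an ephrin-B2 receptor and the only other Eph receptor called upon differentiation, read 4.60 and 4.73 in PLKO DF cells, against 5.19 and 5.56 in PLKO NDF cells, a fall of 0.71 (95% interval of the change -1.05 to -0.37, adjusted p = 0.0135) that was lost without PLKO DF replicate 1 or PLKO NDF replicate 3. In V71 it read 4.59 and 4.43 in DF cells, against 4.58 and 4.96 in NDF cells, which overlap. EPHA2 changed by -0.57 (adjusted p = 0.0157) in V71 and -0.55 (adjusted p = 0.0195) in PLKO cells, just under the fold threshold.

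ROR1 rose by 1.27 (SE 0.09, adjusted p = 1.91e-05) in V71 cells. Its change in PLKO cells was 0.56 (SE 0.09, adjusted p = 0.00285), just under 1.5-fold. MERTK, a receptor for GAS6 and protein S that clears dying cells, read 6.44 and 6.63 in V71 DF cells, against 5.95 and 5.76 in V71 NDF cells, a change of 0.68 (SE 0.10, adjusted p = 0.00165). In PLKO cells it read 6.63 and 6.64 in DF, against 6.08 and 6.16 in NDF, a change of 0.52 (adjusted p = 0.00817) that missed the fold threshold. The values thus separated by condition in both lines for ROR1 and MERTK, and only the V71 changes were called. AXL and TYRO3, the relatives of MERTK, were not called.

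EGFR fell in both lines, by 0.93 (SE 0.12, adjusted p = 0.000691) in V71 and by 1.65 (SE 0.12, adjusted p = 1.6e-05) in PLKO cells, and the difference between these changes was 0.72 (SE 0.17, adjusted p = 0.109). KIT fell by 0.75 (SE 0.10, adjusted p = 0.000878) in V71 cells, and in PLKO cells its change was -0.52 (SE 0.10, adjusted p = 0.00729), under the fold threshold. PDGFRA and MET, which differed between the lines, were not called upon differentiation in either. For PDGFRA it was -0.22 (95% interval -0.47 to 0.03) in V71 and 0.05 (95% interval -0.20 to 0.30) in PLKO cells, and for MET 0.08 (95% interval -0.16 to 0.32) in V71 and 0.02 (95% interval -0.22 to 0.26) in PLKO cells.

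PTK7, a Wnt co-receptor without kinase activity, read 6.60 and 6.62 in V71 DF cells, against 7.16 and 7.24 in V71 NDF cells, a change of -0.60 (SE 0.08, adjusted p = 0.00111) that was lost without V71 NDF replicate 3. In PLKO cells PTK7 read 6.82 and 6.88 in DF, against 7.23 and 7.17 in NDF, a change of -0.35 (adjusted p = 0.0225), again under the fold threshold. DDR2 fell by 0.92 (SE 0.09, adjusted p = 0.000153) in PLKO cells, and in V71 cells its change was -0.43 (SE 0.09, adjusted p = 0.0139). On the second DDR2 row both changes were called, at -0.94 and -0.64. FGFR2 fell by 1.10 (SE 0.10, adjusted p = 7.9e-05) in PLKO cells, and in V71 cells its change was -0.16 (95% interval -0.39 to 0.06).

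Whether the change upon differentiation differed between the lines was tested as an interaction, the V71 change less the PLKO change. Of the 47 members 2, FGFR2 and ROR1, were called positive and 0 negative, against 1.39% of all genes called, 1.09% positive and 0.305% negative. FGFR2 had an interaction of 0.94 (SE 0.14, adjusted p = 0.0163), its PLKO NDF arrays standing above the other 6 and the remaining arrays lying between 3.66 and 4.05. Only the PLKO NDF mean of FGFR2 lay above the array median. Whether low signal limited its change in V71 cells was not tested. ROR1 had an interaction of 0.71 (SE 0.13, adjusted p = 0.0355), its V71 NDF arrays standing below the other 6. The ROR1 call was lost on leaving out any of the 8 arrays, and the FGFR2 call on leaving out V71 DF replicate 1 or any NDF array, and both were lost without moderation. Over all alternatives the adjusted p reached 0.223 for ROR1 and 0.252 for FGFR2. For EPHA6, EGFR, DDR2 and KIT the interaction was not called.

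**Figure D3:**
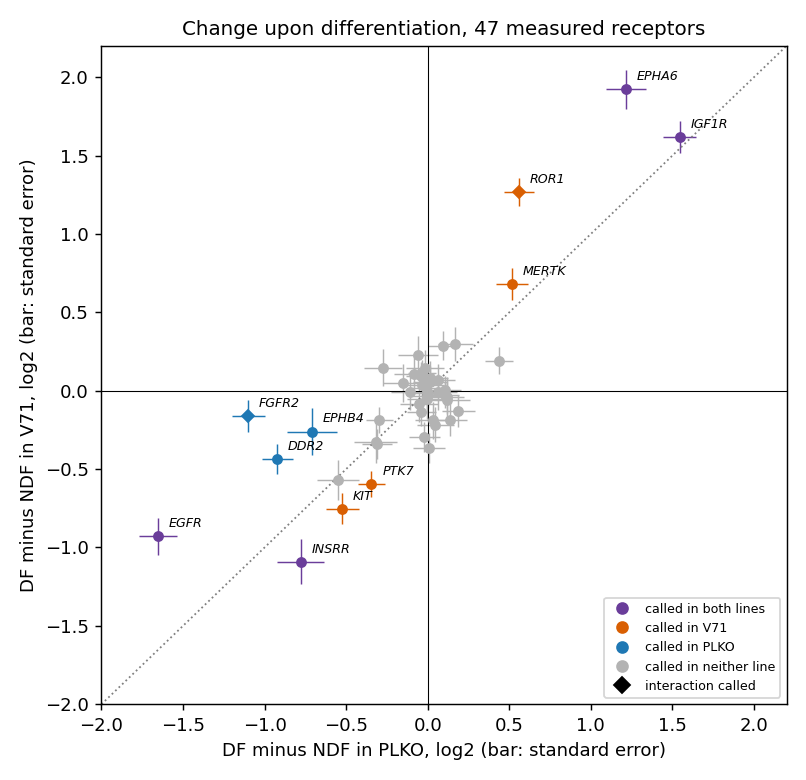
Change upon differentiation (DF minus NDF, log2, bars are standard errors) of the 47 analysed receptors in V71 cells (vertical axis) against PLKO cells (horizontal axis), coloured by the line in which they were called, with diamonds for called interactions and a dotted line of equal change. IGF1R lies on the dotted line at 1.62 and 1.55, and FGFR2 lies well off it at -0.16 and -1.10.

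The 34 members called in no comparison had differences between -0.24 and 0.20 in NDF cells and between -0.47 and 0.37 in DF cells, and changes upon differentiation between -0.57 and 0.30 in V71 and between -0.55 and 0.44 in PLKO cells. Among them TYRO3, INSR, ERBB2, EPHA2, FGFR1, PDGFRB, ROR2 and RYK were above the median in at least some groups. An adjusted p under 0.05 with a fold under 1.5 was seen for FGFR1 in PLKO cells upon differentiation, at 0.44 (adjusted p = 0.0093), for PDGFRB in V71 cells, at -0.34 (adjusted p = 0.0415), for RYK, a Wnt receptor, in PLKO cells, at -0.30 (adjusted p = 0.044), and for ERBB2 in V71 cells, at -0.36 (adjusted p = 0.0368). The vascular receptors FLT1, FLT4, KDR, TEK and TIE1 and the leukocyte receptors CSF1R and FLT3 lay below the median in every group.

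Ligands of these receptors were read for 62 of 66 listed genes. In NDF cells 2 were lower and 0 higher in V71 than in PLKO, and in DF cells 0 were lower and 3 higher, or 3.23% and 4.84% called against 2.15% and 3.06% of all genes. Upon differentiation 5 rose and 1 fell in V71 cells (9.68%, against 7.53% of all genes), and 2 rose and 2 fell in PLKO cells (6.45%, against 7.04%), so the shares lay near those of all genes. An interaction was called for 4 ligands (6.45%, against 1.39%). FGF1, which binds all FGF receptors, read 5.47 and 5.50 in V71 DF cells, against 3.55 and 3.26 in V71 NDF cells, and 5.78 and 5.85 in PLKO DF cells, against 3.41 and 3.70 in PLKO NDF cells. Its rise was 2.08 (SE 0.12, adjusted p = 7.09e-06) in V71 and 2.27 (SE 0.12, adjusted p = 3.3e-06) in PLKO cells. ANGPT2, a ligand of TEK, rose by 2.08 in V71 and 1.87 in PLKO cells, and TEK itself lay below the lower quartile in every group. KITLG, the ligand of KIT, fell by 0.87 (adjusted p = 0.000936) in V71 and by 1.21 (adjusted p = 0.000104) in PLKO cells, and between the lines it differed by -0.25 (95% interval -0.51 to 0.01) in NDF and 0.09 (95% interval -0.17 to 0.35) in DF cells. PDGFD, a PDGF ligand, rose by 0.67 (adjusted p = 0.00382) in V71 cells, and in PLKO cells it changed by 0.43 (adjusted p = 0.0378), under the fold threshold.

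EFNB2, the ephrin bound by EPHB4 and other EphB receptors, gave opposite differences between the lines in the 2 conditions. It read 7.90 and 8.03 in V71 DF cells, against 6.59 and 6.69 in PLKO DF cells, and 6.12 and 6.15 in V71 NDF cells, against 6.80 and 6.86 in PLKO NDF cells. V71 cells were highest in DF and lowest in NDF. The difference was 1.33 (SE 0.09, adjusted p = 3.63e-05) in DF and -0.69 (SE 0.09, adjusted p = 0.00238) in NDF cells, and the interaction was 2.02 (SE 0.12, adjusted p = 0.000122). FGF5 and PTN had called interactions of 0.89 each, and FGF7 one of 0.78, although FGF7 lay below the lower quartile in all groups but PLKO NDF. PROS1, the protein S ligand of MERTK and TYRO3, was higher in V71 DF cells by 0.90 (SE 0.10, adjusted p = 0.000782).

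Of the adaptors and regulators 43 of 49 were read. Between the lines 1 was higher and 0 lower in NDF cells, and 1 was higher and 1 lower in DF cells, or 2.33% and 4.65% called against 2.15% and 3.06% of all genes. Upon differentiation 2 rose and 1 fell in V71 and 1 rose and 2 fell in PLKO cells, 6.98% in each, against 7.53% and 7.04%, and these shares too lay near those of all genes. DOK4, an adaptor of RET and the insulin receptor, read 6.72 and 6.79 in V71 DF cells, against 8.57 and 8.60 in V71 NDF cells, and 7.05 and 7.08 in PLKO DF cells, against 7.84 and 7.77 in PLKO NDF cells. It fell in both lines, by 1.83 (SE 0.08, adjusted p = 1.2e-06) in V71 and by 0.74 (SE 0.08, adjusted p = 0.000249) in PLKO cells, and the interaction was -1.09 (SE 0.12, adjusted p = 0.00201). The PI3K regulatory subunits went apart in DF cells, PIK3R1 being lower by 0.78 (V71 minus PLKO -0.78, adjusted p = 0.00104) and PIK3R3 higher by 0.65 (adjusted p = 0.00252) in V71 than in PLKO. IRS2, the docking protein below IGF1R and INSR, rose by 0.79 (adjusted p = 0.00183) in V71 cells, and GAB2 by 0.71 (adjusted p = 0.000721). LRIG1, a brake on ErbB receptors, rose by 0.67 (adjusted p = 0.00799) in PLKO cells.

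**Figure D4:**
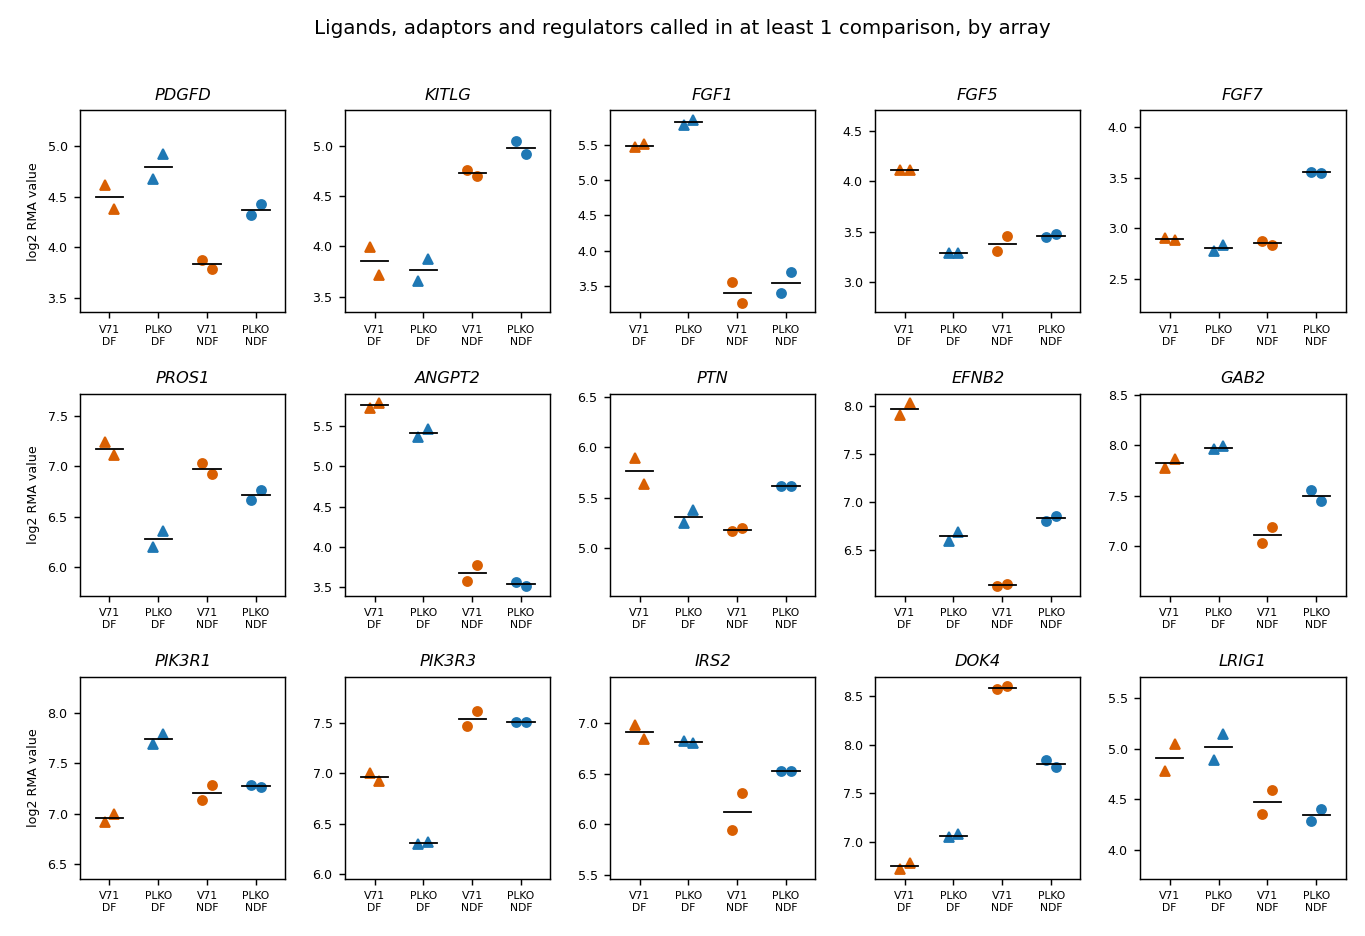
Log2 RMA value on every array (points; triangles DF, circles NDF; V71 orange, PLKO blue), with group means as lines, of the 15 ligands, adaptors and regulators called in at least 1 comparison; the vertical axes differ between panels. EFNB2 is highest in V71 DF cells, at 7.90 and 8.03, and lowest in V71 NDF cells, at 6.12 and 6.15, whereas FGF1 and ANGPT2 separate DF from NDF in both lines.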

How the data were processed

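Total RNA of the 8 arrays was labelled with biotin and hybridised. The deposited values are log2 expression per transcript cluster, which the authors summarised and normalised by RMA in Partek Genomics Suite 6.5. Detection calls and the genome build of the array annotation were not given in the sources used here. Groups were taken from the array titles. Of 28869 rows, 19310 carried 1 symbol, 1752 several and 7807 none. All rows were fitted with limma 3.58.1 in R 4.3.3, with 4 group means that shared a spread (4 residual degrees of freedom, prior 5.43), empirical Bayes moderation and Benjamini-Hochberg adjustment. Intervals are 95% from the moderated statistic. The methods used analysis of variance with an FDR and a 1.5-fold limit. With 2 arrays per group, their number limits the precision. Values per array were given for called members, and the other members were given by range, count or level, not all by name. Genes named from the partner lists were called ones, up to 4 per list and comparison. Not all of their called differences were printed. The members, lists and thresholds were chosen with earlier results of these data known. Scripts were tested on simulated data. RefSeq tables gave promoter windows, the order of neighbouring genes and the current symbols of 2 renamed list genes. Alternatives changed the prior, the normalization, the filter on dim rows, the fold limit, the row per gene, the arrays fitted and a replicate block.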

Additional observations from a re-analysis of the deposited data

Results flagged for a closer look

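A difference between the lines in the change upon differentiation, by the interaction term, was called for 2 receptors. FGFR2 had an interaction of 0.94 on the log2 scale, its change being -0.16 in V71 and -1.10 in PLKO cells. Its group mean lay above the array median in PLKO NDF cells only. ROR1 had an interaction of 0.71, its change being 1.27 in V71 and 0.56 in PLKO cells. Interactions of similar size in EGFR (0.72, limma adjusted p = 0.109) and EPHA6 (0.71, adjusted p = 0.139) were not called. Of 18 alternatives, 12 lost the ROR1 call and 7 the FGFR2 call, no moderation among them for both. Groups of 2 arrays were too small for a check of single outlying arrays.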

How the results depend on the processing

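The 29 calls on members were recomputed under up to 19 alternatives, which gave 549 values, of which 502 kept their call, 47 lost it and 0 reversed. PDGFRA and KIT between the lines, and IGF1R and EPHA6 upon differentiation, kept their calls under every alternative run. Without moderation 18 of 29 calls held, and the counts became 4 lower in V71 NDF, 2 lower and 0 higher in V71 DF, 3 falling in PLKO and 0 positive interactions. With no fold threshold 8 fell in V71, and 5 rose and 9 fell in PLKO cells. With a fold of at least 2, 1 fell in V71, 2 fell in PLKO, 0 were higher in V71 DF and 0 interactions were positive. Median centring left 1 positive interaction, FGFR2, and the row with the lowest mean gave 0 higher in V71 DF. Fitting only the 4 arrays compared was not possible for the interaction.

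Leaving out single arrays gave 6 to 7 lower and 0 higher in V71 NDF, 4 lower and 0 to 1 higher in V71 DF, 3 to 5 falling and 4 rising in V71, 3 to 6 falling and 2 to 3 rising in PLKO, and 0 to 1 positive and 0 negative interactions. The 3 falls in PLKO were those left without PLKO NDF replicate 3. The lone array of a group was then assumed to vary like the other groups. The cause of these losses was not tested.

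Arrays of V71 and PLKO with the same replicate number had deviations that correlated at -0.18 in NDF and 0.19 in DF, over 28869 rows. These correlations do not settle whether arrays of the lines were paired. The main fit took the numbers as names and the arrays as independent. With the replicate block, 1 interaction was positive, FGFR2, and EPHB4 was also called lower in V71 NDF (adjusted p = 0.0278). A block crossed in NDF, added after seeing the data, gave the same counts as the fit without a block, 7 lower in V71 NDF, 4 lower and 1 higher in V71 DF and 2 positive interactions.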
